A study of Mus musculus with 6 samples.

Results

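Expression of 8 genes of the cell death machinery was described in cells sorted from the subventricular zone of adult mice: the caspase genes Casp1, Casp2, Casp4, Casp6, Casp8 and Casp9, the scaffold gene Apaf1 and the inhibitor gene Xiap. They were chosen by symbol and make up 8 of the 55487 genes of the deposited table. All 8 passed the filter on low values and were among the 17278 genes tested. In TKO mice the alleles were Rb(F/F);p107(-/-);p130(F/F), and in THC mice they were Rb(F/+);p107(+/-);p130(F/+). All mice carried NestinCreERT2 and the R26 EYFP reporter on a C57BL/6;Sv/129 background, so recombination was started by tamoxifen in Nestin-expressing cells and their progeny, and the controls had a lowered dose of the family rather than an intact one. Tamoxifen was given by gavage at 200 mg/kg per day for 5 days to mice aged 6 to 10 weeks, and the tissue was collected 10 days past the final dose. Cells of several mice were pooled to reach 200000 or more YFP-positive cells per sample, so spread between single mice was not measured. There were 3 TKO and 3 THC samples. Library 1 of each genotype belonged to a February batch, and libraries 2 and 3 to a November batch.

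Caspases are proteases that cut after aspartate and are made as inactive precursors. Initiator caspases are switched on in large assemblies. Caspase-8 is activated at death receptors, caspase-9 on the apoptosome that Apaf1 forms with cytochrome c, and caspase-2 on the PIDDosome. Initiators cleave executioner caspases, which dismantle the cell, and XIAP binds and blocks some, not all, caspases of both kinds. Inflammatory caspases act in innate immunity: caspase-1 matures interleukin-1 beta in inflammasomes, and the product of Casp4 senses cytosolic lipopolysaccharide. Rb family proteins restrain E2F factors, for which Apaf1 and several caspase genes are known targets in other cells, and cell death limits the output of neural progenitors in the subventricular zone.

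The libraries summed to 15724797 to 16696645 normalized counts, each worth close to 1 read. Rbl1, which encodes p107, was at 14.5 to 42.0 normalized counts in TKO and at 497 to 646 in THC libraries. Rb1 was at 2877 to 3573 in TKO and 1631 to 2022 in THC, and Rbl2, which encodes p130, at 912 to 976 in TKO and 847 to 1250 in THC, but counts per gene do not show whether the floxed part was lost. Stem cell, progenitor and neuroblast markers were present in every library, with a summed normalized count of 92244 to 118227 in TKO and 59897 to 113536 in THC for 6 stem and progenitor markers, and of 10266 to 14511 in TKO and 15145 to 21633 in THC for 4 neuroblast markers. RNA of other cells was present as well. The 16 microglia markers summed to 10866, 2877 and 1868 in TKO 1 to 3 and to 6796, 1705 and 1242 in THC 1 to 3, and 8 of them rose in TKO and none fell. Myelin, endothelial and neuronal markers were lower in TKO (6 of 6, 7 of 8 and 3 of 4 fell). Of 4 ependymal markers 1 rose and 2 fell, of 4 neuroblast markers 2 fell, and of 6 stem and progenitor markers 2 rose. The T cell markers Cd3e, Cd3g and Cd8a had no reads in any library. Cd2, of the same list, was at 0, 6.45 and 3.86 normalized counts in TKO 1 to 3. In THC 1 to 3 it was at 0, 1.89 and 3.03. In such bulk samples a lower number of cells of a type and less RNA per cell cannot be told apart.

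In TKO cells, Casp8, Casp4, Apaf1 and Xiap rose and Casp6 fell, while Casp9, Casp2 and Casp1 did not pass the test. By class, 1 of 3 initiators (Casp8) rose, the executioner Casp6 fell, and 1 of 2 inflammatory genes (Casp4) rose, with Apaf1 and Xiap beside them. Casp4 only just met the filter on low values, mostly through TKO libraries, where it was higher. Its place in these counts and those below rests partly on that. The threshold for a call was an adjusted p of 0.05 in limma, a linear model fitted to log2(normalized count + 1) of all genes with terms for batch and genotype. By this rule 5 of the 8 genes were called (62.5%), where 27.9% of all genes tested were called. The 4 that rose compare with 14.3% of all genes tested that rose, and the 1 that fell with 13.6% that fell. These counts depended on the setting. With no intensity trend 2 of the 8 were called (19% of all genes tested), and with no batch term 2 (22.7%). Without TKO 3, 1 was called (21%). The median log2 change of the 8 genes was 0.42, against -0.0003 over all genes tested. TKO and THC libraries did not overlap for 6 of the 8 genes, against 38.9% of all genes tested. Of these, 4 were higher and 2 lower in TKO, against 19.4% and 19.5% of all genes tested. By the adjusted p of the authors' deposited table, 5 of the 8 were called at the same threshold, where 15.0% of the 32018 genes that have an adjusted p there were, and 4 of them (Casp8, Apaf1, Xiap and Casp6) were also called here. The authors' deposited adjusted p was 0.048 for Casp9 and 0.058 for Casp4. Those values come with a weight per gene. Benjamini-Hochberg adjustment of the same deposited p-values without weights kept Casp8 (0.0027), Apaf1 (0.0078) and Xiap (0.033) under 0.05. It did not keep Casp6 (0.064) or Casp9 (0.11), and Casp4 was at 0.051. A test of whether the genotype change differed between February and November passed for none of the 8 genes (lowest limma adjusted p 0.957, unadjusted p from 0.23 to 0.83), where 0.341% of all genes tested passed. With 1 February library per genotype, the SE of this difference ran from 0.29 (Xiap) to 1.46 (Casp4). The test therefore cannot show that both batches changed alike.

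**Figure D1:**
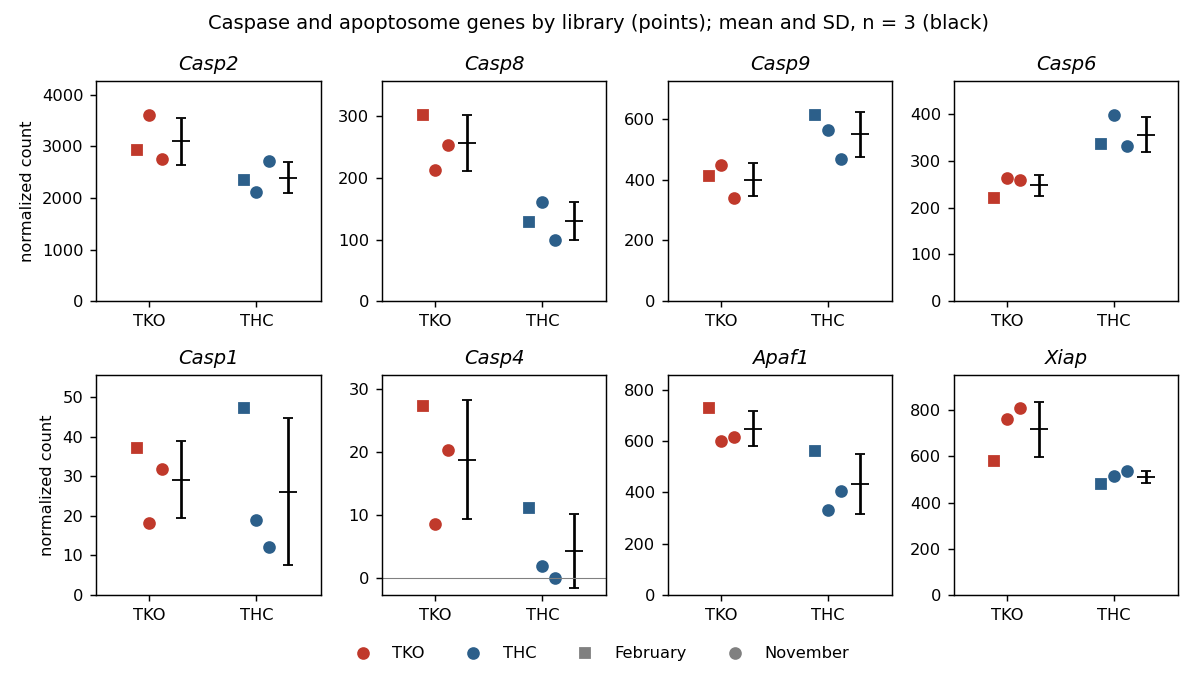
Normalized count (vertical axis, linear, its own scale per gene) of each gene in the 3 TKO and 3 THC libraries, with squares for February, circles for November, and the mean ± SD of 3 libraries in black. TKO points lie above all THC points for Casp2, Casp8, Apaf1 and Xiap and below them for Casp9 and Casp6, while the genotypes overlap for Casp1 and Casp4.

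Casp8 encodes the initiator of the death receptor pathway (ENSMUSG00000026029, chromosome 1, 58795374 to 58847503, GRCm38). It was at 303, 213 and 254 normalized counts in TKO 1, 2 and 3, against 129, 161 and 99.98 in THC 1, 2 and 3. All TKO libraries were above all THC libraries. The means were 256 ± 44.9 in TKO and 130.3 ± 30.8 in THC (SD, n = 3 each), a 1.98-fold rise. The log2 change was 0.98 (SE 0.23, 95% interval 0.48 to 1.49, limma adjusted p = 0.0074). The February pair gave 1.22 and the November libraries 0.87. The call held whichever of the 6 libraries was left out (adjusted p from 0.0020 to 0.042) and in the other settings tried. Among the 8 genes Casp8 was the only one called in every setting. Casp8 is also expressed by microglia, and 8 of 16 microglia markers rose in TKO. The marker sums were 10866, 2877 and 1868 in TKO 1, 2 and 3, against 6796, 1705 and 1242 in THC 1, 2 and 3, so they overlapped. From lowest to highest library they spread 5.8-fold within TKO and 5.5-fold within THC, and Casp8 1.4-fold and 1.6-fold. Casp8 was highest in TKO 1 and, among THC libraries, in THC 2. The part of microglia RNA in the Casp8 values was not tested.

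The RefSeq window before the Casp8 start (GRCm38.p6, plus strand, chr1:58802252-58802501) is shown because Casp8 had the most stable rise. It lies inside the GENCODE gene span, beyond that gene's earliest annotated start, and holds no annotated exon. CpG dinucleotides are in capitals. There are 5 of them in these 250 bases.
Casp8: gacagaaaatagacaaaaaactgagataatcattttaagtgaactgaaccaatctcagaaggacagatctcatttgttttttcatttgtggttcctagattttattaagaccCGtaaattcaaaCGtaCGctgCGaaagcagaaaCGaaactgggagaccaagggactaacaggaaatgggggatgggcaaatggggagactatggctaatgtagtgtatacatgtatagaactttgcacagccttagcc

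A list of 10 genes held partners of caspase-8 and caspase-2 on their platforms: death receptors, adaptors and the PIDDosome. Of these, 9 were tested, 5 rose and none fell (median log2 change 0.65), where 14.3% of all genes tested rose and 13.6% fell. Pidd1, the scaffold of the PIDDosome and a known p53 target, rose by 1.72 (SE 0.15, limma adjusted p = 7.2e-06). It was at 903, 1030 and 980.3 normalized counts in TKO 1, 2 and 3, against 234, 302 and 358 in THC 1, 2 and 3. Tnfrsf10b, the mouse receptor for TRAIL, rose by 1.94 (SE 0.35, limma adjusted p = 0.0016). Cflar encodes FLIP, which competes with caspase-8 for its adaptor. It had a log2 change of 0.15 (SE 0.15, limma adjusted p = 0.51), with 434, 420.2 and 473 normalized counts in TKO against 425, 409 and 364 in THC.

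Casp2, the initiator of the PIDDosome (ENSMUSG00000029863, chromosome 6, 42264985 to 42282508), was the most abundant of the 8 genes. It was at 2927, 3617 and 2754 normalized counts in TKO 1, 2 and 3, against 2342, 2121 and 2725 in THC 1, 2 and 3. The lowest TKO library was just above the highest THC library. The means were 3099.6 ± 457 in TKO and 2396 ± 305 in THC (SD, n = 3 each). This gave a log2 change of 0.37 (SE 0.15, 95% interval 0.05 to 0.69, limma adjusted p = 0.079). February alone gave 0.32 and November 0.39. It did not pass, except without THC 3, where the log2 change was 0.47 (adjusted p = 0.048).

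Of the apoptosome genes, Apaf1 rose and Casp9 did not pass the test. Apaf1, the scaffold that recruits caspase-9 (ENSMUSG00000019979, chromosome 10, 90989311 to 91082770, minus strand), was at 727, 599.7 and 617 normalized counts in TKO 1, 2 and 3. In THC 1, 2 and 3 it was at 562, 333 and 405. The genotypes did not overlap, and the February library was the highest of each. The means were 648 ± 69.1 in TKO and 434 ± 117 in THC (SD, n = 3 each), a 1.52-fold rise. The log2 change was 0.61 (SE 0.15, 95% interval 0.28 to 0.94, limma adjusted p = 0.010). In February it was 0.37 and in November 0.73. The call ended narrowly without TKO 3 (log2 change 0.56, adjusted p = 0.051) and with no intensity trend (adjusted p = 0.053).

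Casp9, the caspase that the apoptosome activates (ENSMUSG00000028914, chromosome 4, 141793612 to 141815976), was at 411, 448 and 340.0 normalized counts in TKO 1, 2 and 3, against 613, 563 and 469 in THC 1, 2 and 3. All TKO libraries were below all THC libraries, in the opposite direction to Apaf1. The means were 399.7 ± 55.0 in TKO and 548 ± 73.5 in THC (SD, n = 3 each). On the log2 scale the change was -0.46 (SE 0.16, 95% interval -0.81 to -0.10, limma adjusted p = 0.055). It was -0.58 in February and -0.40 in November. It did not pass, but passed when THC 3 was left out (-0.55, adjusted p = 0.049) and when TKO 2 was (-0.59, adjusted p = 0.037). The authors' deposited adjusted p was 0.048, and 0.11 by Benjamini-Hochberg without their weights. The 95% interval of Casp9 lies below those of Apaf1 and Casp8; the difference between genes was not tested. Exons of Casp9 overlap exons of Cela2a and Ctrc on the opposite strand over 94 bases, and the libraries do not keep the strand. Cela2a and Ctrc averaged 0.483 and 0.163 normalized counts over the 6 libraries, against 474 for Casp9.

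Apaf1 starts head to head with Ikbip, a gene on the opposite strand whose start lies 170 bases away (chromosome 10, 91082940). It was the only protein-coding gene within 1000 bases that faced one of the 8 genes in this way, and it was singled out after its values were seen. Ikbip was at 602, 445 and 609 normalized counts in TKO 1, 2 and 3, against 752, 654 and 598 in THC 1, 2 and 3. The genotypes overlapped, and the log2 change of -0.28 (SE 0.15, limma adjusted p = 0.20) had the sign opposite to that of Apaf1. The stretch between both starts is shown from the side of Ikbip to the start of Apaf1, on the minus strand (GRCm38.p6, chr10:91082771-91082939). It holds 30 CpG dinucleotides, in capitals, in 169 bases.
Apaf1: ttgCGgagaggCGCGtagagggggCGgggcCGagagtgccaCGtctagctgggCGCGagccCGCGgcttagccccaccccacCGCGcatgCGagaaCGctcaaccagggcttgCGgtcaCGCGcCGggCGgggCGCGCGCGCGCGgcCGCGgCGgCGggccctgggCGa

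Of 8 genes for mitochondrial activators and apoptosome partners, all tested, 1 rose and 1 fell (median log2 change 0.03), a share near the 27.9% of all genes tested. Apip, a methionine salvage enzyme that also binds Apaf1, rose by 0.41 (SE 0.14, limma adjusted p = 0.047), a call that ended whichever library was left out (adjusted p from 0.054 to 0.20). Endog, a mitochondrial nuclease, was at 37.1, 19.3 and 21.2 normalized counts in TKO 1, 2 and 3, against 47.1, 87.8 and 106 in THC 1, 2 and 3. It fell by 1.58 (SE 0.41, limma adjusted p = 0.013). February gave a log2 change of -0.34 and November one of -2.20. Without either February library the change was -2.20, and the call ended when THC 3 (adjusted p = 0.063), TKO 2 (0.052) or TKO 3 (0.058) was left out and with no intensity trend (0.052). The mitochondrial chaperone gene Hspd1 had a log2 change of -0.003 (SE 0.14, limma adjusted p = 0.99).

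The executioner among the 8 genes fell in TKO. Casp6 (ENSMUSG00000027997, chromosome 3, 129901425 to 129914103), was at 222, 262 and 259.8 normalized counts in TKO 1, 2 and 3, against 337, 399 and 331 in THC 1, 2 and 3. All TKO libraries were below all THC libraries. The means were 248 ± 22.8 in TKO and 356 ± 37.3 in THC (SD, n = 3 each), a ratio of 0.698. The log2 change was -0.52 (SE 0.17, 95% interval -0.88 to -0.16, limma adjusted p = 0.036). February gave -0.60 and November -0.48. The sign held in every setting, but the call ended when any 1 library other than THC 3 was left out (adjusted p from 0.088 to 0.12), in November alone (0.11), with no intensity trend (0.059) and with no batch term (0.054).

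Of 10 proteins that executioners cleave or that act below them, all tested, the genes of 2 rose and none fell (median log2 change 0.06). Over all genes tested 27.9% were called, 14.3% higher and 13.6% lower. Gas2, a cytoskeletal substrate, rose by 0.56 (SE 0.13, limma adjusted p = 0.0088), and Rock1, a kinase freed by cleavage, rose by 0.48 (SE 0.13, limma adjusted p = 0.019). The Gas2 call ended without TKO 1 (adjusted p = 0.052), and the Rock1 call without THC 2 (0.082), without TKO 3 (0.096) or with no intensity trend (0.0999). Parp1 had a log2 change of 0.23 (SE 0.15, limma adjusted p = 0.29).

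**Figure D2:**
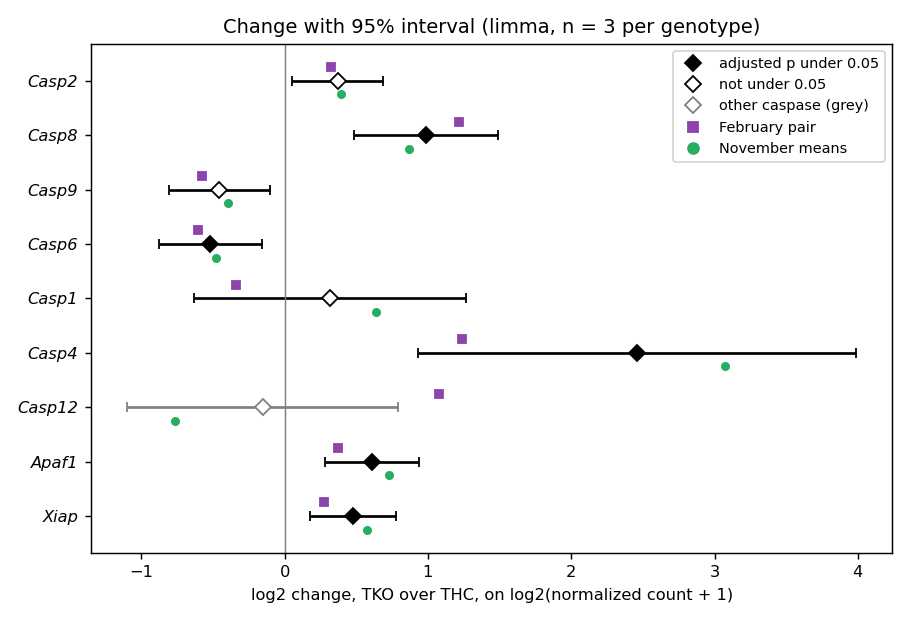
Log2 change, TKO over THC (horizontal axis), with its 95% interval from limma for the 8 genes (black) and Casp12 (grey). Filled diamonds passed an adjusted p of 0.05, squares are the February pair and circles the difference of November means. Casp8, Casp4, Apaf1 and Xiap lie to the right of 0 and Casp6 to the left, with February and November on the same side for each.

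Xiap, the X-linked inhibitor of caspases (ENSMUSG00000025860, chromosome X, 42059679 to 42109656), was at 579.7, 762 and 806 normalized counts in TKO 1, 2 and 3, against 480.1, 516 and 535 in THC 1, 2 and 3. All TKO libraries were above all THC libraries, TKO 1 the least. The means were 716 ± 120.1 in TKO and 510.3 ± 27.9 in THC (SD, n = 3 each), a 1.39-fold rise. Xiap rose by 0.47 on the log2 scale (SE 0.14, 95% interval 0.18 to 0.77, limma adjusted p = 0.022), and by 0.27 in February and 0.58 in November. The call ended when THC 2 (adjusted p = 0.072), THC 3 (0.061), TKO 2 (0.075) or TKO 3 (0.095) was left out, with no intensity trend (0.070) and with no batch term (0.057). Xist, the RNA that coats an inactive X, had no reads in TKO 1 and 944 to 2047 normalized counts in the other libraries. Without TKO 1, Xiap had a log2 change of 0.58 (adjusted p = 0.025).

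Of 10 genes for other IAP family members and IAP antagonists, 6 were tested, 2 rose and 1 fell (median log2 change 0.27). Among all genes tested 14.3% rose and 13.6% fell. Xaf1, an interferon-inducible antagonist of XIAP, was at 421, 451 and 515 normalized counts in TKO 1, 2 and 3, against 63.1, 130.3 and 98.0 in THC 1, 2 and 3. It rose by 2.29 (SE 0.21, limma adjusted p = 1.3e-05). Birc5, which encodes survivin and acts mainly in mitosis, rose by 1.62 (SE 0.15, limma adjusted p = 1.4e-05). Septin4, from which the XIAP antagonist ARTS is made by splicing, fell by 1.84 (SE 0.14, limma adjusted p = 4.1e-06), while Birc2 had a log2 change of 0.05 (SE 0.13, limma adjusted p = 0.80). Counts are per gene and do not tell the ARTS transcript from other Septin4 transcripts. Of the myelin markers 6 of 6 fell as well (median log2 change -2.39), and the part of cell composition in the Septin4 values was not tested.

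The inflammatory caspase genes Casp1 and Casp4 are neighbours on chromosome 9, with 1562 bases between them, and had the lowest levels of the 8 genes. They are related in sequence, so reads may have been shared between them. Casp4 (ENSMUSG00000033538, 5308828 to 5336783) was at 27.3, 8.60 and 20.3 normalized counts in TKO 1, 2 and 3, or 28, 8 and 21 reads by the step of each library. In THC 1, 2 and 3 it was at 11.03, 1.89 and 0 normalized counts, or 11, 2 and 0 reads, where 0 allows up to 3 reads in that library. The steps of THC 1 and THC 3 are so close to 1 that their read numbers are less certain. TKO 2 lay below THC 1, so the genotypes overlapped. Only TKO 1, TKO 3 and THC 1 reached 10 normalized counts, the fewest libraries with which a gene could enter the test. Within November both TKO libraries were above both THC libraries, and in February TKO was above THC. The means were 18.7 ± 9.46 in TKO and 4.30 ± 5.90 in THC (SD, n = 3 each).

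The log2 change of Casp4 was 2.46 (SE 0.70, 95% interval 0.93 to 3.99, limma adjusted p = 0.021). It was 1.24 in February and 3.07 in November. At such low counts its size depended on the value added before the logarithm, with 2.86 for an added 0.5 and 1.44 for an added 5, both past the threshold. The call ended without THC 3 (1.85, adjusted p = 0.065), without TKO 3 (1.96, adjusted p = 0.11) and with no batch term (adjusted p = 0.068), and the authors' deposited adjusted p was 0.058. Casp4 and Casp1 are expressed by microglia. The February libraries, with the highest microglia marker sums, had the highest Casp4 of their genotype. Among the November TKO libraries the order was reversed, with 8.60 in TKO 2 (marker sum 2877) and 20.3 in TKO 3 (1868). In November THC it was kept, with 1.89 in THC 2 (1705) and 0 in THC 3 (1242).

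Casp1 (ENSMUSG00000025888, 5298517 to 5307265) was at 37.1, 18.3 and 31.9 normalized counts in TKO 1, 2 and 3, against 47.1, 18.9 and 12.1 in THC 1, 2 and 3. The genotypes overlapped, and the highest library was THC 1. The means were 29.1 ± 9.71 in TKO and 26.0 ± 18.6 in THC (SD, n = 3 each). Casp1 had a log2 change of 0.31 (SE 0.43, 95% interval -0.63 to 1.26, limma adjusted p = 0.64), with opposite signs in February (-0.34) and November (0.64). No change was detectable at this depth. The part of microglia RNA in the Casp1 and Casp4 values was not tested.

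Both windows before the starts of Casp1 and Casp4 are shown because these adjacent genes had unlike values (RefSeq, GRCm38.p6, plus strand). They are chr9:5298267-5298516 for Casp1 and chr9:5308599-5308827 for Casp4, which stops where the annotated exon begins. CpG dinucleotides are in capitals, with 1 in the 250 bases of Casp1 and 3 in the 229 bases of Casp4.
Casp1: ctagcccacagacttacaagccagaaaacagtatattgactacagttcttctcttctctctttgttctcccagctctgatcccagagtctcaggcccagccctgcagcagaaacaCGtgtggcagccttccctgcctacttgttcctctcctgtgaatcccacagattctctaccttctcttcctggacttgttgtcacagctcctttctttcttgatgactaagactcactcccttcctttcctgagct
Casp4: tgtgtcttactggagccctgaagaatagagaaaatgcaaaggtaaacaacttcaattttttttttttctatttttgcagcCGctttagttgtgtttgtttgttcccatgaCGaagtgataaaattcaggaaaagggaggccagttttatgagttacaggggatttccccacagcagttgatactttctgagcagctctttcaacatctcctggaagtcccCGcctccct

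**Figure D3:**
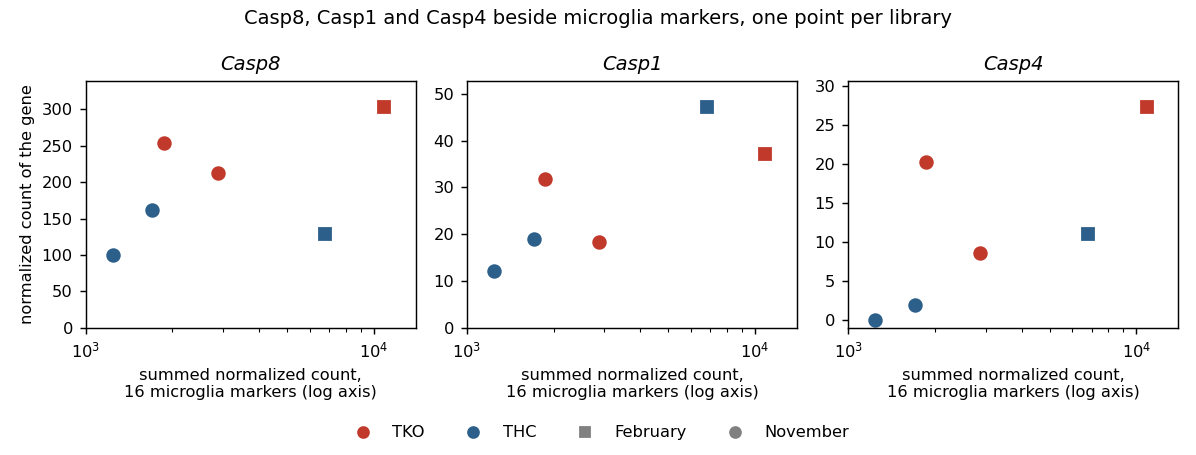
Normalized count of Casp8, Casp1 and Casp4 (vertical axes, linear) against the summed normalized count of 16 microglia markers (horizontal axis, log scale), 1 point per library, with squares for February and circles for November. The February libraries stand to the right with marker sums of 10866 in TKO and 6796 in THC. The 3 TKO points lie above the 3 THC points for Casp8, and the highest point is THC 1 for Casp1 and TKO 1 for Casp4.

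The partners of the inflammatory caspases moved in both directions. Of 13 inflammasome and pyroptosis genes, 10 were tested, 5 rose and 1 fell (median log2 change 1.13). The shares over all genes tested were 14.3% that rose and 13.6% that fell. Gbp5 and Gbp2, interferon-inducible GTPases that promote activation of Casp4, rose by 2.71 (SE 0.30, limma adjusted p = 4.4e-05) and 1.64 (SE 0.22, limma adjusted p = 0.00020). Il18, a cytokine that caspase-1 matures, was at 743, 749 and 844 normalized counts in TKO 1, 2 and 3, against 2600.1, 1975 and 1707 in THC 1, 2 and 3. It fell by 1.41 (SE 0.15, limma adjusted p = 3.0e-05). Il1b encodes interleukin-1 beta and was singled out after its values were seen. It was at 731, 157 and 42.5 normalized counts in TKO 1, 2 and 3, against 165, 15.1 and 8.08 in THC 1, 2 and 3. Il1b rose by 2.56 (SE 0.44, limma adjusted p = 0.0011), although the genotypes overlapped across batches, and the call ended with no batch term (adjusted p = 0.13). Its order over the libraries was that of the microglia marker sums within each genotype. Aim2, a sensor of cytosolic DNA, had a log2 change of 0.48 (SE 0.28, limma adjusted p = 0.24). Casp12 was at 49.8, 31.2 and 37.7 normalized counts in TKO 1, 2 and 3, against 23.1, 78.4 and 44.4 in THC 1, 2 and 3 (log2 change -0.15, SE 0.43, limma adjusted p = 0.83). Casp14, an epidermal caspase, had 0.966 normalized counts in TKO 3 and no reads elsewhere and was not tested. Of the microglia markers 8 of 16 rose in TKO, and the part of microglia RNA in the values of this group was not tested.

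Levels can be set against each other only per length, so normalized counts were divided by the exon length of each gene in kb. Casp2 had the highest level in each genotype, with 439 ± 64.7 normalized counts per kb in TKO and 339 ± 43.3 in THC (SD, n = 3 each). In TKO, Casp8 (88.6 ± 15.5 per kb), Casp9 (76.9 ± 10.6), Xiap (75.6 ± 12.7) and Apaf1 (71.8 ± 7.65) came next, and their ranges over libraries overlapped. Casp6 (44.4 ± 4.09), Casp1 (19.4 ± 6.49) and Casp4 (5.05 ± 2.55) followed without overlap between neighbours. In THC the order was Casp9 (106 ± 14.1 per kb), Casp6 (63.7 ± 6.69), Xiap (53.9 ± 2.95), Apaf1 (48.0 ± 13.0) and Casp8 (45.0 ± 10.6), then Casp1 (17.4 ± 12.4) and Casp4 (1.16 ± 1.59). The THC ranges of Xiap, Apaf1 and Casp8 overlapped, and so did those of Apaf1 and Casp6. Casp8 was thus second of the 8 genes in TKO and sixth in THC, although its TKO neighbours in that order did not differ beyond their spread.

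**Figure D4:**
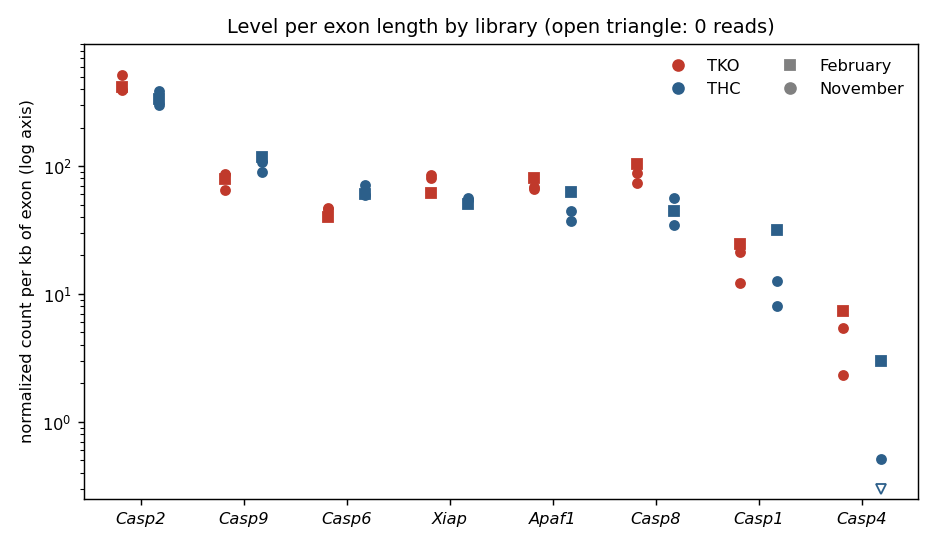
Normalized count per kb of exon (vertical axis, log scale) of the 8 genes in each library, TKO left of THC, with squares for February, circles for November and an open triangle for a library with 0 reads. Casp2 stands highest and Casp4 lowest in each genotype, and Casp8 is level with Casp9 in TKO but below it in THC.

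Over the 6 libraries, Pearson's r of log2(normalized count + 1) was used to find the genes most like each of the 8, among genes with a mean of at least 100 normalized counts. With genotype and batch shared by all genes, high values are common: 30 to 137 genes reached an r of 0.95 for each of the 8, of about 11409 compared. Casp8 was most like Junb (r = 0.999) and Thbs2 (0.996), and Casp6 most like Tmem50a (0.998) and Rabac1 (0.995). Apaf1 was most like Lonrf3 (0.996) and Tgfbr1 (0.994), and Xiap most like Slc43a1 (0.996) and Nemp2 (0.988). Casp9 was most like Snx1 (0.994) and Nat8 (0.991), and Casp2 most like Stx12 (0.994) and Ncl (0.987). Casp4 was most like Slc35f1 (0.995), and Casp1 most like mt-Co3 (0.986) and Glis2 (0.984).

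All 8 genes matched RefSeq promoter windows of 250 bases before to 50 after a start, 11 windows in all. Each was searched on both strands for the E2F motifs TTTCGCGC and TTTGGCGC, the interferon response element and the GAS motif TTCNNNGAA. None of the 11 windows held a match to these forms. Other forms of the E2F site were not searched for, so the result does not show that the windows lack E2F sites. Over 32851 windows of all genes, 0.323% held TTTCGCGC, 0.514% held TTTGGCGC, 3.44% held the interferon response element and 8.30% held TTCNNNGAA, so most windows of any gene lack them. The windows differed in composition. That of Apaf1 was 74.7% G or C with 46 CpG dinucleotides and that of Casp9 66.0% with 28, while that of Casp8 was 42.0% with 5 and that of Casp1 48.0% with 3. The median over all windows was 52.7% and 7 CpG dinucleotides.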

How the data were processed

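RNA-seq was done on 3 TKO and 3 THC samples. Per the labels' protocols, RNA of sorted cells (quality number at least 8.0) was converted with SMART-Seq v4 from at least 35 ng and made into Nextera XT libraries, which do not keep the strand. The submitters' processing notes name HISAT2, featureCounts of Subread, DESeq2 and GRCm38; their versions and the annotation were not stated there. The authors' deposited table gives per gene and sample a normalized count, which is a signal on a per-sample scale. All values were whole multiples of a step per library (0.944 to 1.07, within 0.001 of a read), so 1 normalized count is taken as close to 1 read. Further columns, per the file headers, are the authors' log2 fold change with SE, a Wald score, p-values, adjusted p-values and a weight, a score of hypothesis weighting.

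limma 3.58.1 in R 4.3.3 was fitted to log2(normalized count + 1) of all 6 samples with an intensity trend, batch and genotype. Genes with at least 10 normalized counts in at least 3 samples entered, and p-values were adjusted by Benjamini-Hochberg over 17278 genes. Count tests were planned as alternatives and not run, since the values are normalized and whole reads could not be established for THC 1 and THC 3, whose steps lie near 1. The fit was tested on simulated data that had the same spread setting for all genes. It recovered 18.8% of 1.5-fold, 84.6% of 2-fold and 100% of 4-fold changes, with 3 false calls. Changes below 1.5-fold, such as those of Casp2 and Casp9, may thus be missed, and not passing does not show that a gene was unchanged. Replicate numbers did not pair the samples. Coordinates and exon lengths are from GENCODE M21 (GRCm38). The 8 genes, the lists and the rule for named genes (all 8, further caspase genes, and per list up to 2 called genes per direction with the smallest adjusted p plus the most abundant uncalled gene) were chosen with earlier results of these data known. The series calls the samples biological replicates; which mice went into which pool is not known here, and p-values measure the spread between them. Protein sequences were not analysed here, and some genes that the rule names are not reported here.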

Additional observations from a re-analysis of the deposited data

How the results depend on the processing

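Of 120 values of the 8 genes under the alternatives, 23 changed their call and 0 reversed, and of 300 values of the other named genes 21 changed their call and 0 reversed. The count of 8 genes called was 2 with no intensity trend, where 19% of all genes tested were called. It was 2 with no batch term, where 22.7% of all genes tested were called. When a library was left out it ranged from 1 to 5. The fewest were called without TKO 3 (1, Casp8, against 21% of all genes tested) and without THC 2 (3, against 21.9%). The excess over the share of all genes tested thus depended on the setting. Genes called lower numbered 1484 with no intensity trend, against 2345. A fit with replicate block called 4 of the 8 genes and 4069 of all, ending the call of Casp6 (adjusted p = 0.064). Samples with the same number did not deviate together in every pair (r = 0.23, -0.11 and 0.14). Another scaling, a trimmed mean of M-values chosen after seeing the data, moved no call of the 8 genes. edgeR, DESeq2 and TMM scaling on recovered reads were planned and not run. Fewer than 50 reads per library limit Casp1 and Casp4.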

Other observations

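Ratios between genes within a library, chosen after the values were seen and given with no test, set the unequal changes side by side. Casp8 over Casp9 was 0.736, 0.475 and 0.747 in TKO 1, 2 and 3, against 0.211, 0.287 and 0.213 in THC 1, 2 and 3. Apaf1 over Casp9 was 1.77, 1.34 and 1.82 in TKO, against 0.917, 0.592 and 0.864 in THC, and Xiap over Apaf1 overlapped between genotypes (0.797, 1.27 and 1.31 in TKO, against 0.854, 1.55 and 1.32 in THC). Casp8 over Cflar was 0.580 ± 0.102 in TKO and 0.325 ± 0.0625 in THC (SD, n = 3 each). Casp2 over Pidd1 was 3.19 ± 0.355 in TKO and 8.22 ± 1.59 in THC (SD, n = 3 each). Casp4 over Casp1 was 0.737, 0.471 and 0.636 in TKO, against 0.234, 0.100 and 0 in THC.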
